A study of Mus musculus with 6 samples.

Results

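Satellite cells are the resident stem cells of skeletal muscle, and 9 genes used to recognise them in their resting state are described here: Calcr, Cd34, Vcam1, Sdc3, Sdc4, Cxcr4, Cdh15, Chrdl2 and Tek. They were taken by symbol from the deposited expression tables, where all 9 were found among the 24067 symbols that the tables share. Of these, 8 encode proteins of the cell surface (a calcitonin receptor, a sialomucin, a cell adhesion molecule, a pair of syndecans, a chemokine receptor, a cadherin and a receptor tyrosine kinase), and Chrdl2 encodes a secreted antagonist of bone morphogenetic proteins.

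The study compared RNA from mouse satellite cells in 2 states and 2 genotypes. Freshly isolated satellite cells (FISC) gave 1 wild-type library (FISC WT) and 1 library labelled iKo for Yy1 (FISC iKO), a gene for a zinc finger transcription factor. Activated satellite cells (ASC), cultured for 36 h in F10 medium with serum, gave 1 wild-type (ASC WT) and 1 Yy1 iKo library (ASC iKO). A chromatin immunoprecipitation with an antibody to YY1 and its input, from ASC of a sample labelled C57, gave 1 list of peaks. For the knockout, the sources used here name no driver and no allele, and they give neither the age or number of the animals nor the surface markers by which the cells were isolated. Each group was 1 library, so no difference has a replicate check, and no p-value or standard error is given. Levels are FPKM, a fragment count divided by transcript length and scaled for library depth, which can be compared between genes. How the depth was scaled is not stated.

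As background, satellite cells lie quiescent between the muscle fibre and its basement membrane, enter the cell cycle after injury, and in culture become activated within days. The calcitonin receptor signals through cyclic AMP and helps to hold the cells quiescent. VCAM1, CD34, CXCR4 and syndecan-4 are in common use as antibody targets for sorting satellite cells, and M-cadherin (Cdh15) joins them to the fibre. The receptor Tie2 (Tek) binds angiopoietins and is better known from endothelium.

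The libraries matched their labels at the targeted gene, and all 6 satellite cell markers listed reached 1 FPKM in each library. Of these markers 1, Cdh15, is also among the 9 genes described here. Yy1 stood at 51.0 FPKM in FISC WT and 20.1 in FISC iKO, and at 55.2 in ASC WT and 2.03 in ASC iKO. Pax7, the transcription factor that defines satellite cells, stood at 61.8, 78.3, 28.3 and 6.19 FPKM in FISC WT, FISC iKO, ASC WT and ASC iKO, and Myod1, the myogenic determination factor, at 411, 558, 698 and 598. Myog, another myogenic factor, stood at 8.28 FPKM in FISC WT and 9.55 in FISC iKO and was listed at 0 in both ASC libraries. Between 10657 and 10947 genes reached 1 FPKM in a library. The summed level of the 6 satellite cell markers was 1533 and 1642 FPKM in FISC WT and FISC iKO and 1132 and 924 in ASC WT and ASC iKO. Cdh15 held 161, 153, 41.4 and 29.3 FPKM of these sums. Summed markers of other cells were also lower in ASC than in FISC for most types. The summed level of 7 fibro-adipogenic markers was 493 and 422 FPKM in FISC WT and FISC iKO and 40.8 and 19.4 in ASC WT and ASC iKO, that of 9 endothelial markers 13.0, 10.9, 6.36 and 4.73, and that of 6 pericyte and smooth muscle markers 224, 220.0, 41.5 and 23.8, of which Notch3, also a satellite cell gene, held 131 in FISC WT. The sums of 4 erythroid markers were 185 and 147 FPKM in FISC, all 4 being listed at 0 in ASC WT. Those of 4 Schwann cell markers were 12.1, 11.0, 2.17 and 1.90. The sums of 8 leukocyte markers were 10.1, 9.17, 4.23 and 15.7, with Ptprc, the defining gene, listed at 0 in both ASC libraries. Only 2 of the 8 reached 1 FPKM in ASC, and both were at least 2-fold higher in ASC iKO. Cd14 stood at 2.80 FPKM in ASC WT and 9.75 in ASC iKO, and Cd68 at 1.36 and 5.16. Cd34 is made by fibro-adipogenic and endothelial cells too, as are Vcam1 and Tek by endothelium. The part of these cells in the results below was not tested, and in bulk RNA a smaller share of a cell type and less RNA per cell cannot be told apart.

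No deposited YY1 peak lay at any of the 9 loci. A summit inside the locus or within 2 kb of it was found for 0 of 9, when 9.85% of the 11215 genes expressed in ASC (1 FPKM or more in either library) had such a peak. The nearest was 5.79 kb from Cxcr4 (chromosome 1, 130494621 to 130494713, mm9), with an authors' fold over background of 3.75 and a −log10 q of 0, which puts it among the weakest of the list. The next was 26.0 kb from Chrdl2 (chromosome 7, 107128875 to 107129026), where the authors' fold was 7.67, above 94.4% of the 2031 peaks. At the other 7 genes the nearest summit was between 166 and 2242 kb away. Within 10 kb the count was 1 of 9, against 12.6% of genes.

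The promoters differ widely in base composition although several of the genes are listed together as markers. RefSeq sequences (build GRCm38.p6) were at hand for 7 of the 9, with 2 start sites for Calcr. Vcam1 and Chrdl2 had no entry. The 250 bases before the start are shown for Cd34 and Sdc3, the only members that were at least 2-fold higher in ASC WT than in FISC WT, for Cxcr4, the member nearest to a peak, and for the start of Calcr that holds a motif match. Capitals mark matches to the motifs named after them, each searched on both strands.
Cd34, chr1:194938571-194938820, plus strand: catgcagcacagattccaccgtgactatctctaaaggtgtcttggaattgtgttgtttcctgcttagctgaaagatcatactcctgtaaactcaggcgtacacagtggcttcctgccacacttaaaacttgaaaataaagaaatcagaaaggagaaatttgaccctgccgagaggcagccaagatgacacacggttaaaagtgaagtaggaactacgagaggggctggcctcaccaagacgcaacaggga
Sdc3, chr4:130792287-130792536, plus strand: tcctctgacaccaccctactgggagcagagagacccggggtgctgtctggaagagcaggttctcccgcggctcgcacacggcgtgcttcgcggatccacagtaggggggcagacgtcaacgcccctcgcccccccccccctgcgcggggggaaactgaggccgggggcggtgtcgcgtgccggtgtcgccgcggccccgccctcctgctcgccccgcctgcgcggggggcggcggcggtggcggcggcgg
Cxcr4, chr1:128592300-128592549, minus strand: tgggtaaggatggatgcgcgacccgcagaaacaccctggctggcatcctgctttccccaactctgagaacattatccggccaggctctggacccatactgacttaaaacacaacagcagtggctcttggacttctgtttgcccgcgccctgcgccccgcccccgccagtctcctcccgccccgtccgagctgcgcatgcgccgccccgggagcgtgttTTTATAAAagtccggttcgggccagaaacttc
Calcr, chr6:3764714-3764963, minus strand: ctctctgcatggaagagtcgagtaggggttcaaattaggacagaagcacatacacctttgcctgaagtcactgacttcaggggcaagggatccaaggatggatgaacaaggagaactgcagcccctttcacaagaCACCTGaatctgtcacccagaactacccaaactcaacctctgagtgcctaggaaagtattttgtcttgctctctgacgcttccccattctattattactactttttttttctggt
The Cd34 window held 6 CpG dinucleotides at 46.4% G and C, and the Sdc3 window 32 at 76.4%, when the medians over 32851 RefSeq promoters were 6 and 52.4%. None of the 8 member windows held AANATGGC, a form of the YY1 motif, which 3.91% of all promoters held. E-boxes, the sites of myogenic factors, were searched as CAGCTG (13.0% of all promoters, 0 of 8 here) and CACCTG (17.2%, 1 of 8, in Calcr). The RBPJ motif GTGGGAA, of the Notch pathway, was in 5.42% of all and in 0 of 8. A TATAAA box stood in 12.4% of all and in 1 of 8, that of Cxcr4, where matches on the 2 strands overlap. These matches describe letters within the window.

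In freshly isolated wild-type cells the 9 genes ranged from 11.5 to 1401 FPKM. Sdc4, a heparan sulfate proteoglycan of the cell surface, stood at 1401 FPKM, above 99.3% of the genes that reached 1 FPKM. Vcam1 followed at 392 and Cdh15 at 161. Chrdl2 stood at 93.5 FPKM, Cxcr4 at 56.9, Calcr at 42.8 and Cd34 at 34.0. At the low end Sdc3 and Tek, at 11.8 and 11.5 FPKM, were near the middle of all genes, above 53.7% and 53.0% of them. The order was the same in FISC iKO except that Tek and Sdc3 changed places. With 1 library per group, whether neighbours in this order differ beyond replicate spread was not measured.

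After 36 h in culture the order was different. In ASC WT the order was Sdc4 (180.1 FPKM), Cd34 (103), Vcam1 (62.2), Sdc3 (50.3), Cdh15 (41.4), Cxcr4 (24.4), Chrdl2 (2.12), Calcr (1.14) and Tek (0.918). Cd34 had moved from place 7 to place 2 and Sdc3 from 8 to 4. Calcr and Chrdl2, above 83.6% and 92.3% of expressed genes in FISC WT, were above 1.51% and 8.90% of them in ASC WT.

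**Figure D1:**
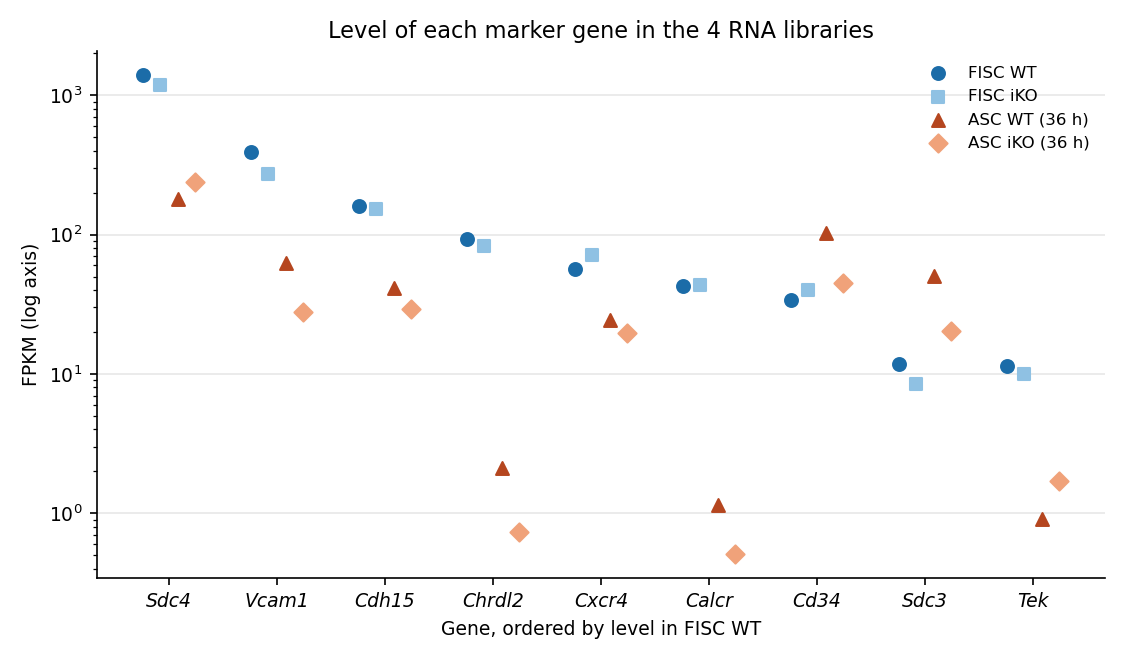
FPKM on a log axis for each of the 9 genes in the 4 RNA libraries, 1 point per library, with genes ordered by their level in FISC WT. Both ASC points lie below both FISC points for 7 genes, and above them for Cd34 and Sdc3.

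Comparing cultured with fresh cells shows which of these markers differ between the 2 states. The resting state, isolation, culture and cell composition cannot be told apart in it. Since the FISC and ASC libraries stand in separate tables that may have been normalized separately, the values describe these libraries only. The ratio used throughout is log2 of (FPKM + 1) over (FPKM + 1), and a gene is called higher or lower where that ratio reaches 2-fold, which is a threshold of size with no test behind it. In the wild type 7 of the 9 genes were at least 2-fold lower in ASC and 2 were at least 2-fold higher, when 17.2% of 11816 genes were lower and 31.0% were higher. The median of the 9 was −2.64 and that of all genes 0.40. With upper-quartile scaling 22.1% of all genes were lower and 22.4% higher, and the counts of members did not change.

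Of the 9 genes, Chrdl2 and Calcr had the largest differences between fresh and cultured cells. Chrdl2 (chromosome 7, 107154913 to 107183236, mm9) stood at 93.5 FPKM in FISC WT and 83.4 in FISC iKO, and at 2.12 in ASC WT and 0.732 in ASC iKO. Its log2 ratio of ASC over FISC was −4.92 in WT, 44.0-fold lower on the plain FPKM scale, and −5.61 in iKO. Calcr (chromosome 6, 3635719 to 3714713; the table gives Mir489 and Mir653 the same locus) stood at 42.8 and 43.8 FPKM in FISC WT and FISC iKO, and at 1.14 and 0.512 in ASC WT and ASC iKO. The log2 ratios were −4.35 in WT, 37.5-fold lower on the plain scale, and −4.89 in iKO. For both genes the fresh libraries were alike and far above the cultured ones.

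Vcam1 and Sdc4, the highest of the 9 genes in fresh cells, were also lower in culture. Vcam1 (chromosome 3, 115812937 to 115832606), the ligand of integrin α4β1, was listed at 392 FPKM in FISC WT, 269.8 in FISC iKO, 62.2 in ASC WT and 27.6 in ASC iKO. The log2 ratio of ASC over FISC was −2.64 in WT and −3.24 in iKO. Sdc4 (chromosome 2, 164249746 to 164268688) stood at 1401, 1190.0, 180.1 and 237 FPKM in the same order, with log2 ratios of −2.95 and −2.32. Even in culture it was the highest of the 9, above 95.9% of expressed genes in ASC WT.

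Cxcr4, the receptor of the chemokine CXCL12 (chromosome 1, 130484775 to 130488876), had the smallest of the 7 decreases in wild-type cells. It stood at 56.9 FPKM in FISC WT, 70.8 in FISC iKO, 24.4 in ASC WT and 19.6 in ASC iKO, log2 ratios of −1.19 and −1.80. Cdh15 (chromosome 8, 125372273 to 125391297) stood at 161, 153, 41.4 and 29.3 FPKM in the same order, with ratios of −1.93 and −2.35. Tek (chromosome 4, 94405979 to 94541667) stood at 11.5, 9.97, 0.918 and 1.71 FPKM, with ratios of −2.70 and −2.02. For these 3 genes both fresh libraries were above both cultured ones.

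Cd34 and Sdc3 went the other way. Cd34 (chromosome 1, 196765014 to 196803153; Gm16897 is given the same locus) stood at 34.0 FPKM in FISC WT and 39.7 in FISC iKO, and at 103 in ASC WT and 45.1 in ASC iKO. The log2 ratio of ASC over FISC was 1.58 in WT and 0.18 in iKO, or 1.17 and −0.21 relative to the median of all genes. Only the ASC WT library stands apart for this gene. The summed fibro-adipogenic and endothelial markers, from cells that also make Cd34, were lower in that library than in FISC WT. The endothelial Egfl7 went the other way, at 1.65 FPKM in FISC WT and 3.89 in ASC WT. The part of such cells in the Cd34 level was not tested.

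Sdc3 (chromosome 4, 130348451 to 130382233), a syndecan with a long extracellular domain, stood at 11.8 and 8.54 FPKM in FISC WT and FISC iKO, and at 50.3 and 20.4 in ASC WT and ASC iKO. The log2 ratio of ASC over FISC was 2.01 in WT and 1.16 in iKO. Both cultured libraries were above both fresh ones. In iKO the 2-fold call ended with upper-quartile scaling (0.72), and relative to the median of all genes the value was 0.78.

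In the iKO libraries alone, 7 of 9 genes were at least 2-fold lower in ASC and 1 was higher, when 20.6% of 11797 genes were lower and 33.7% were higher. The 7 were the same genes as in WT, namely Calcr, Vcam1, Sdc4, Cxcr4, Cdh15, Chrdl2 and Tek. With upper-quartile scaling 27.4% of all genes were lower and 23.8% higher. Over all genes, 14.5% of 11476 were lower by 2-fold in both genotypes.

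**Figure D2:**
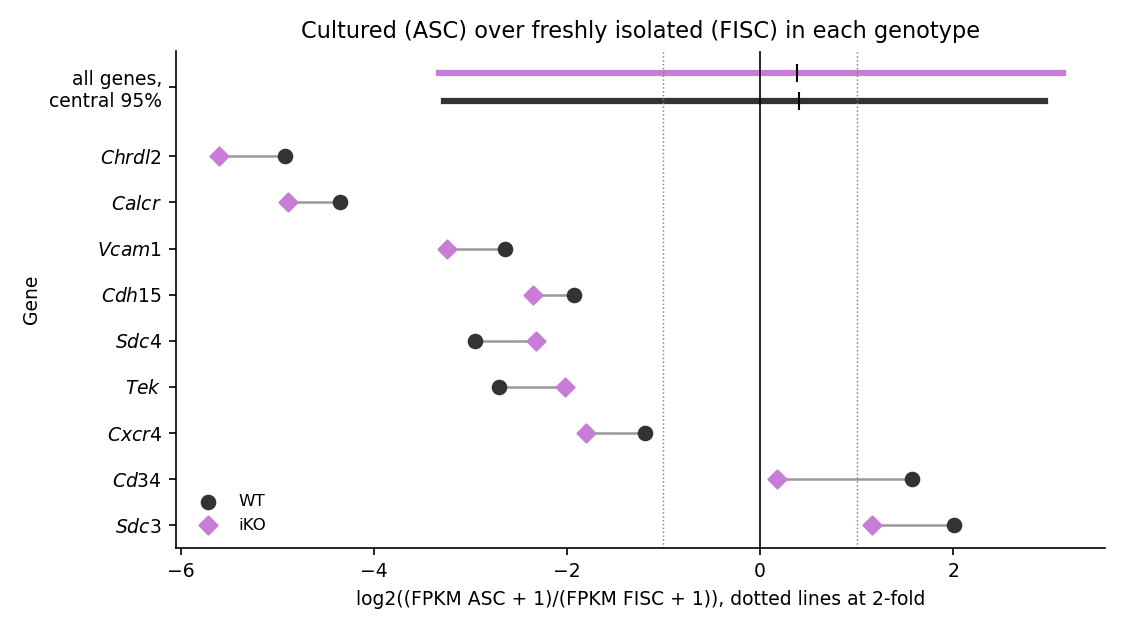
log2 ratio of ASC over FISC (FPKM + 1) for the 9 genes in WT (circles) and iKO (diamonds), with bars above for the central 95% of all genes and ticks for their medians of 0.40 and 0.38. Chrdl2 and Calcr lie to the left of the central 95% of all genes in both genotypes, and only Cd34 and Sdc3 lie to the right of 0.

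The iKO libraries were compared with WT within each state to ask which markers differ when Yy1 is lower. Yy1 itself had a log2 ratio of −1.30 in FISC and −4.21 in ASC, so more of its RNA remained in FISC iKO. In FISC none of the 9 reached 2-fold in either direction, when 0.721% of 11229 genes were lower and 0.677% were higher. The ratios ran from −0.54 for Vcam1 to 0.31 for Cxcr4, with a median of −0.16 against 0.00 for all genes, whose central 95% spanned −0.70 to 0.64. Vcam1 was 392 FPKM in WT and 269.8 in iKO and Sdc3 11.8 and 8.54, the 2 lowest ratios (−0.54 and −0.42). Calcr (42.8 and 43.8 FPKM) and Cdh15 (161 and 153) were the closest to 0, with ratios of 0.03 and −0.07.

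In ASC 3 of the 9 were at least 2-fold lower in iKO and none was higher, when 8.26% of 11215 genes were lower and 8.74% were higher. Sdc3 was 50.3 FPKM in WT and 20.4 in iKO, a log2 ratio of −1.26. Cd34 was 103 and 45.1 FPKM, a ratio of −1.18, and Vcam1 was 62.2 and 27.6, a ratio of −1.14. Each was thus between 2.21-fold and 2.40-fold lower with 1 added to both values. All 3 lie inside the central 95% of all genes in this pair, −1.53 to 1.38.

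The other 6 genes stayed within 2-fold in ASC. Chrdl2 (2.12 and 0.732 FPKM) had a ratio of −0.85 and Calcr (1.14 and 0.512) one of −0.50. At these low levels the added 1 weighs heavily, and with 0.1 added instead the ratios were −1.42 and −1.02, so that 5 of 9 genes passed 2-fold. Over all genes 12.4% were then lower and 11.5% higher. Cdh15 (41.4 and 29.3 FPKM, −0.48) and Cxcr4 (24.4 and 19.6, −0.30) were also below 0. Sdc4 (180.1 and 237 FPKM, 0.40) and Tek (0.918 and 1.71, 0.50) were above 0, but lay below it, at −0.90 and −0.23, where both libraries were scaled to the same sum of FPKM. That scaling rests on Mir762, a microRNA gene chosen after its value was seen, listed at 496241 FPKM or 39.8% of the ASC iKO sum. Without small RNA genes in the sum, Sdc4 was at −0.17 and Tek at 0.18, the median of all genes moved to −0.50 and 23.4% of genes were lower and 1.69% higher. Under these scalings 7 and 5 of the 9 genes passed 2-fold as lower. With the full sum 57.5% of all genes were lower and 0.339% higher.

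**Figure D3:**
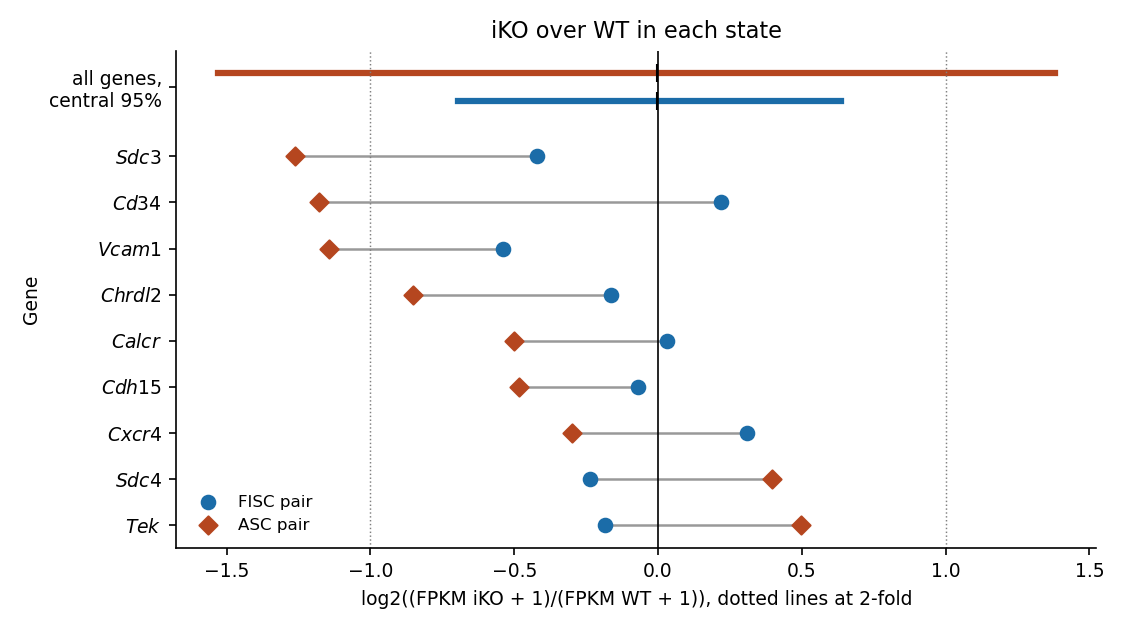
log2 ratio of iKO over WT (FPKM + 1) for the 9 genes in the FISC pair (circles) and the ASC pair (diamonds), with bars above for the central 95% of all genes in each pair. All FISC points lie between the 2-fold lines, and the ASC points of Sdc3, Cd34 and Vcam1 lie beyond −1.

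The iKO ratio differed between the states by at least 2-fold for 1 gene, Cd34. Its ratio was 0.22 in FISC and −1.18 in ASC, a difference of −1.40. Of 10251 genes with both ratios, 7.92% had a difference at least 2-fold below 0 and 8.72% at least 2-fold above it. The differences of the other 8 ran from −0.84 for Sdc3 to 0.68 for Tek. Pax7 had ratios of 0.34 and −2.03 in the 2 states, a difference of −2.37, and Myf5, a myogenic factor of satellite cells, 0.26 and −0.67. With a pseudocount of 0.1 the count was 4 genes, namely Cd34 (−1.42), Chrdl2 (−1.25), Calcr (−1.05) and Tek (1.03). Chrdl2, Calcr and Tek were at most 2.12 FPKM in ASC, and no share of all genes is given for the difference at that setting. In the ASC pair that pseudocount raised the shares of all genes lower and higher to 12.4% and 11.5%. The ratios had opposite signs in the 2 states for 5 of the 9 genes and for 44.4% of all genes. With no replicates, these differences between states were not tested. The iKO libraries also differed in how much Yy1 RNA remained (log2 ratios of −1.30 in FISC and −4.21 in ASC). State and extent of Yy1 loss thus cannot be told apart here.

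Across all genes the ASC ratio was lower for longer loci, and the loci of the 9 genes run from 4.10 kb (Cxcr4) to 136 kb (Tek). The median ratio was 0.67 in the shortest decile of genes and −0.48 in the longest. Vcam1, with a locus of 19.7 kb, lay in decile 5, where the median ratio was 0.06 and 5.97% of genes were 2-fold lower. Cd34 and Sdc3, with 38.1 and 33.8 kb, lay in decile 7, with a median of −0.17 and 8.83% lower. Chrdl2, at 28.3 kb, lay in decile 6, with a median of −0.01. Calcr, at 79.0 kb, had a ratio (−0.50) near the median of its decile 9 (−0.42). Cxcr4 in decile 1 was below its decile's median (−0.30 against 0.67), and Tek in decile 10 was above its own (0.50 against −0.48). In FISC all 10 decile medians lay between −0.03 and 0.04. The part of length in the differences of single genes was not tested.

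**Figure D4:**
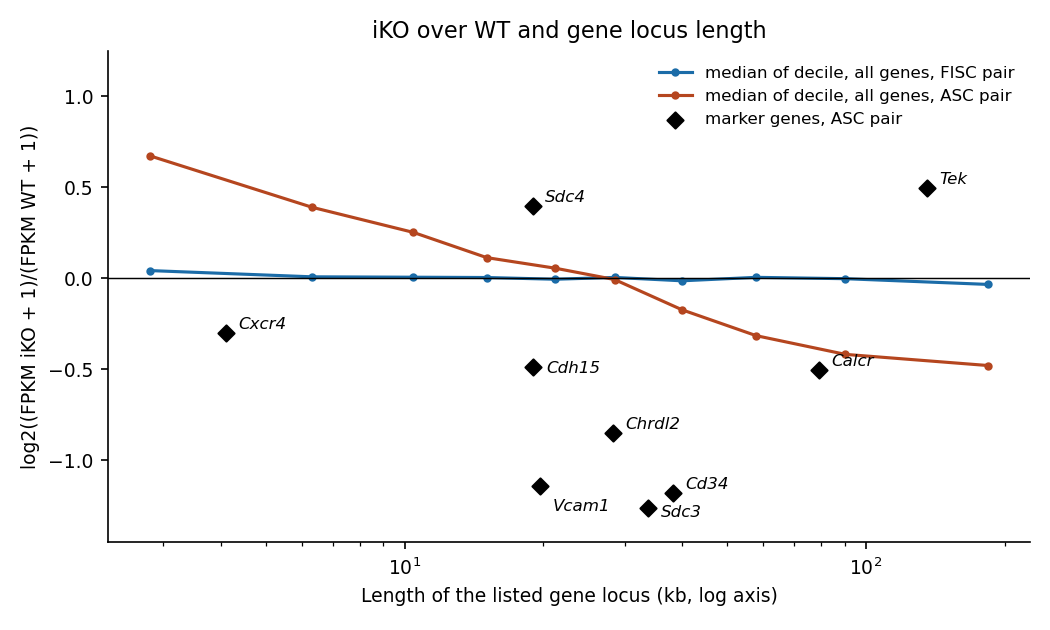
log2 ratio of iKO over WT against locus length in kb (log axis), with lines for the medians of the 10 length deciles of all genes in the FISC and ASC pairs and diamonds for the 9 genes in the ASC pair. The ASC line runs from 0.67 to −0.48, and Vcam1, Sdc3, Cd34, Cxcr4, Chrdl2 and Cdh15 lie below it, Calcr near it, and Sdc4 and Tek above it.

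The relatives of the 9 genes showed which family members stood beside them. Among the 4 syndecans, Sdc4 made up 96.4% of the summed FPKM in FISC WT and 96.5% in FISC iKO, but 60.5% in ASC WT and 78.3% in ASC iKO. Sdc1 stood at 18.5, 14.8, 35.4 and 23.4 FPKM in FISC WT, FISC iKO, ASC WT and ASC iKO, and Sdc2 at 21.7, 20.2, 31.7 and 22.2, both within 2-fold in every comparison. Thus of the 4 syndecans only Sdc3 was at least 2-fold higher in ASC WT than in FISC WT, and only Sdc4 was at least 2-fold lower.

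N-cadherin RNA came close to that of M-cadherin in cultured wild-type cells. Cdh2, which encodes N-cadherin, stood at 1.19 FPKM in FISC WT and 2.41 in FISC iKO, and at 39.4 in ASC WT and 14.7 in ASC iKO. Cdh15 held 99.3% of the sum of these 2 genes in FISC WT and 51.3% in ASC WT. In ASC iKO the share of Cdh15 was 66.7%, and Cdh2 was at least 2-fold lower than in ASC WT (log2 ratio −1.37), as was Cdh11, a cadherin of mesenchymal cells (log2 ratio −1.63). Of the 6 cadherins and catenins listed, these 2 were the only ones past 2-fold between the ASC libraries. Over all genes 8.26% were lower and 8.74% higher in that pair. Of the catenins, which join cadherins to the cytoskeleton, Ctnnb1 stood at 168 FPKM in FISC WT and 195 in ASC WT, Ctnna1 at 76.7 and 135, and Ctnnd1 at 96.4 and 52.4, all within 2-fold. Jup, plakoglobin, was lower (34.6 and 8.02).

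Type V collagen, a ligand of the calcitonin receptor in satellite cells, is built from chains that went in opposite directions. Col5a3 stood at 143 FPKM in FISC WT, 104 in FISC iKO, 1.06 in ASC WT and 1.04 in ASC iKO. Col5a1 stood at 52.1, 39.4, 4.93 and 1.58 FPKM in the same order. Col5a2, in contrast, stood at 44.2, 42.6, 176 and 88.3. Col5a1 and Col5a3 were thus lower in culture, as Calcr was, and Col5a2 was higher. Fibro-adipogenic cells also make these collagens. Of their 7 markers 6 were at least 2-fold lower in ASC WT than in FISC WT. Among these were Dpt (146 FPKM in FISC WT and 0.317 in ASC WT) and Dcn (104 and 4.95). Pdgfra (1.11 and 0.827) stayed within 2-fold. The part of these cells in the collagen levels was not tested. Of the 13 genes of the calcitonin receptor list, 10 passed the filter in wild-type cells, with 4 lower and 2 higher in ASC (median −0.58), when 17.2% of all genes were lower and 31.0% higher. Between the ASC libraries 1 of 9 was lower in iKO, Col5a1 (−1.20), with a median of −0.59, and 8.26% of all genes were lower. Ramp2, an accessory protein of the receptor, stood at 32.2 FPKM in FISC WT and 22.2 in ASC WT, while Calca, a ligand gene, was at 4.14 and 0.506.

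In culture Cxcl12 went one way and its receptors the other. Cxcl12 was higher in culture, at 41.5 FPKM in FISC WT, 33.2 in FISC iKO, 206 in ASC WT and 128 in ASC iKO. Ackr3, the second receptor of CXCL12, stood at 313, 205, 37.2 and 46.9 FPKM, above Cxcr4 in all 4 libraries. Cxcr4 held 15.4% of the sum of the receptors in FISC WT and 39.6% in ASC WT. Neither receptor nor the ligand passed 2-fold between iKO and WT in either state, Mif (234 and 889 FPKM in FISC WT and ASC WT) being like them in this. Of all genes 0.721% were lower and 0.677% higher in the FISC pair, and 8.26% and 8.74% in the ASC pair.

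**Figure D5:**
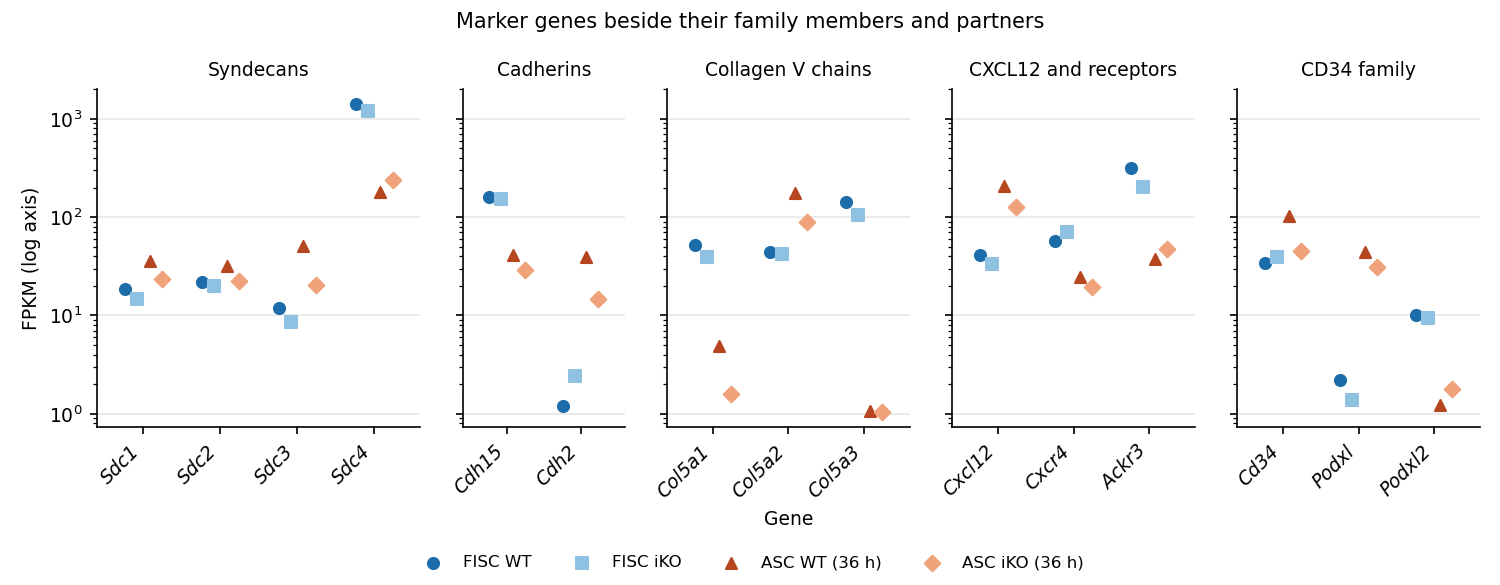
FPKM on a log axis in the 4 RNA libraries, 1 point each, for the syndecans, M- and N-cadherin, the collagen V chains, CXCL12 and its receptors, and CD34 with its relatives. Cdh2, Cxcl12, Col5a2, Cd34 and Podxl lie higher in the ASC libraries, and Sdc4, Cdh15, Col5a3 and Ackr3 lie lower.

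CD34 belongs to a family of sialomucins with podocalyxin (Podxl) and endoglycan (Podxl2). Podxl was higher in culture like Cd34, at 2.18 FPKM in FISC WT and 43.9 in ASC WT (log2 ratio 3.82), but in ASC iKO it stood at 31.3, within 2-fold of WT. Podxl2 was lower, at 10.2 and 1.23 FPKM in FISC WT and ASC WT. Of the integrin chains that bind VCAM1, Itga4 was at most 0.0409 FPKM in any library, whereas the shared chain Itgb1 stood at 119 FPKM in FISC WT and 251 in ASC WT. VCAM1 and other surface proteins bind the actin linkers Ezr and Msn. These were at least 2-fold higher in ASC WT than in FISC WT (12.6 to 60.1 and 142 to 411 FPKM). They were 2-fold lower in ASC iKO than in ASC WT (17.6 and 205), Msn only just so. Rdx, on the same list, stayed within 2-fold in these comparisons (48.4, 84.0 and 48.1 FPKM in FISC WT, ASC WT and ASC iKO). Over all genes 31.0% were higher and 17.2% lower in ASC WT than in FISC WT. In ASC iKO against ASC WT 8.26% were lower and 8.74% higher. Icam1 stood at 70.1 FPKM in FISC WT and 0.922 in ASC WT, a log2 ratio of −5.21 beside −2.64 for Vcam1.

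Ligands of Tie2 were low throughout. Angpt1 stood at 3.28 FPKM in FISC WT and 0.335 in ASC WT, and Angpt2 at 0.618 and 2.87. Tie1, the partner receptor in endothelium, was at most 0.815 FPKM in any library, below Tek in each. The endothelial Pecam1 and Cdh5 stood at 2.72 and 1.95 FPKM in FISC WT, where Tek was at 11.5. The part of endothelial cells in the Tek level was not tested.

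Other genes known from quiescent satellite cells were compared as a list of 22 that holds none of the 9. In WT 15 were at least 2-fold lower in ASC and 1 was higher, when 17.2% of all genes were lower and 31.0% higher. The median of the list was −2.27, beside −2.64 for the 9 genes. The lowest were Heyl, a Notch effector (69.4 FPKM in FISC WT and 1.07 in ASC WT), and Notch3 (131 and 3.53), and the highest were Abcg2, an efflux transporter (1.76 and 7.87), and Ncam1 (47.7 and 77.5). In iKO 18 of 22 were lower and none was higher, when 20.6% of all genes were lower and 33.7% higher. Between the ASC libraries 3 of 20 were lower in iKO, Foxo3 (16.6 and 3.62 FPKM), Cav1 (59.4 and 21.7) and Dag1 (50.8 and 21.3), and 1 was higher, Cdkn1c, an inhibitor of the cell cycle (0.803 and 3.66). The median of these 20 was −0.36, beside −0.50 for the 9 genes and 0.00 for all. Over all genes in that pair 8.26% were lower and 8.74% higher. None of the 22 passed 2-fold between the FISC libraries, when 0.721% of all genes were lower and 0.677% higher.

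Genes with the most similar profile were sought among the 9271 genes that reached 5 FPKM in any library. Likeness was the Euclidean distance between the 4 values of log2(FPKM + 1), each centred on the gene's mean. Closest to Cd34 was Fat1 (distance 0.02), at 7.05, 8.50, 23.1 and 9.61 FPKM, followed by Ralgapb (0.11). Chrdl2 was closest to Notch3 (0.12) and Col6a1 (0.15), Calcr to Bcl3 (0.11) and Pdlim4 (0.14), and Vcam1 to Hivep1 (0.14) and Dpy19l3 (0.16). Sdc3 was closest to Nsf (0.14) and Nup188 (0.23), Sdc4 to Cys1 (0.09) and Wnt4 (0.11), and Cxcr4 to Parp8 (0.03) and Fam117a (0.07). For Cdh15 they were Lonrf3 (0.04) and Dennd1a (0.08), and for Tek Htra1 (0.11) and Mcl1 (0.13). With 4 libraries, small distances are common among many genes and describe the shape of 4 values.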

How the data were processed

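The authors deposited expression as FPKM per gene, per the file headers, in separate tables for FISC and ASC with columns named for wild type and knockout. Per the submitters' processing notes, the tools included TopHat2, Cufflinks 2.2.1 and MACS2 2.1.0 with the build mm9, but no step is assigned to any of them. The annotation, strand setting and scaling are not given there. For each of 2031 peaks the authors deposited a score, a fold (ratio) over background, −log10 p, −log10 q and a summit offset.

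Ratios were computed with Python 3.11.15, numpy and pandas on log2(FPKM + 1), where either library of a comparison reached 1 FPKM, with a call at 2-fold. Adding 1 shrinks the ratios of low genes. No test was made, since each group was 1 library. Absolute depth is unknown. Low FPKM values fall on steps of 1 read. The commonest step ratio (24.4% of 1542 low genes in FISC, 12.0% of 1573 in ASC) put FISC iKO at 1.00 and ASC iKO at 0.664 of its WT. This is a ratio of reads only if FPKM was scaled by total reads, which is not stated. On that reading ASC WT was the deeper of its pair. The code was tested on simulated data.

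The members and lists were chosen with earlier results of these data known. Named were all 9 members, their direct partners, the extreme members of partner lists, and the 2 nearest profiles per member. Peak distances run to the nearer end of the listed locus, since the tables give no strand.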

Additional observations from a re-analysis of the deposited data

Results flagged for a closer look

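The iKO ratio had opposite signs in the 2 states for 5 of the 9 genes, when 44.4% of all genes did, and the difference was not tested, since each state had 1 library per genotype. The ASC ratio minus the FISC ratio was −1.40 for Cd34, −0.61 for Cxcr4 and −0.53 for Calcr, each above 0 in FISC and below 0 in ASC. It was 0.63 for Sdc4 and 0.68 for Tek, each below 0 in FISC and above 0 in ASC. The FISC ratio of Calcr was only 0.03, and the ASC ratio of Sdc4 was below 0 with the libraries scaled to the same sum of FPKM (−0.90, or −0.17 without small RNA genes), as was that of Tek with the full sum (−0.23). The difference reached 2-fold for Cd34 alone, and with a pseudocount of 0.1 for Calcr, Chrdl2 and Tek too, all low in ASC. The share of all genes with such a difference is not given at that setting. The ratio of Yy1 itself was −1.30 in FISC and −4.21 in ASC, so state and extent of Yy1 loss cannot be told apart.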

How the results depend on the processing

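No paired analysis was possible because each group had 1 library and the groups share fewer than 2 replicate numbers. Of 303 values of single members under the alternatives, 281 kept their direction and side of 2-fold, and 1 changed sign and then passed 2-fold. This was Cd34 in ASC iKO over FISC iKO, at 0.18 as reported and −1.02 after scaling to the same sum of FPKM. The count of members at least 2-fold lower in ASC iKO than in ASC WT, 3 as reported, was 5 with a pseudocount of 0.1, 7 with scaling to the same sum of FPKM and 5 with that sum taken without small RNA genes. The share of all genes lower in that pair was 12.4% with the pseudocount of 0.1 and 23.4% with the sum without small RNA genes. Scaling to the same sum made 57.5% of all genes lower and 0.339% higher in that pair, and 41.6% and 12.4% in ASC iKO over FISC iKO, as Mir762 fills much of the ASC iKO sum. The count higher in ASC iKO than in FISC iKO, 1 as reported, was 0 with a pseudocount of 5 and with each of the 3 scalings. Members with a difference between states of at least 2-fold were 4 with a pseudocount of 0.1, where no share of all genes is given. Members with a peak within 10 kb were 1, when 12.6% of genes had one. A filter at 5 FPKM left 6 of the 9 members in the ASC pair. Depth of single libraries is unknown, so no limit of detection is given for genes near 1 FPKM.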

Other observations

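The Chrdl2 product acts on bone morphogenetic protein (BMP) signalling outside the cell. Of 11 BMP ligands and antagonists 6 passed the filter, and 4 of these were at least 2-fold lower in ASC WT than in FISC WT: Bmp4 (90.7 and 15.3 FPKM), Bmp6 (29.3 and 7.92), Bmp2 (12.2 and 0.876) and Chrd (2.93 and 0.234). Over all genes 17.2% were lower and 31.0% higher. Fst, follistatin, stood at 4.75 and 7.54 FPKM. In iKO 5 of 6 were lower and Fst was higher (2.97 and 10.7), when 20.6% of all genes were lower and 33.7% higher. Between iKO and WT 6 of the 11 passed the filter in FISC and 3 in ASC, and none of these passed 2-fold. Over all genes 0.721% were lower and 0.677% higher in the FISC pair, and 8.26% and 8.74% in the ASC pair.

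Heparan sulfate, carried by syndecans and glypicans, is made and trimmed by enzymes on the same list as Sdc1 and Sdc2. Between the ASC libraries 3 of the 14 genes with a value were at least 2-fold lower in iKO: Ndst1, a sulfotransferase (22.8 and 2.67 FPKM), Hspg2, perlecan (63.1 and 16.3), and Sulf1, a sulfatase (2.61 and 0.785). None was higher, and the median was −0.54, when 8.26% of all genes were lower and 8.74% higher. In WT cells Sulf1 stood at 52.6 FPKM in FISC and 2.61 in ASC while Sulf2 stood at 0.835 and 7.06.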
